A study of Mus musculus with 6 samples.

Results

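A commercial mouse circular RNA array (Arraystar, version 2) carries, among 14330 probes for RNA, 50 probes whose transcript identifiers point to ordinary genes and not to circular RNAs. The 47 described here are the non-control probes left after the circRNA, circRNA control, custom and negative probes and the probes of Apoe, Lhfp and H2-Q7 were set aside. Each was printed as 10 spots per array. Transcript identifiers of 41 of the 47 matched a RefSeq gene symbol, and the other 6 are given by their probe names.

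Each sample was a complex of the retinal pigment epithelium (RPE) with the underlying choroid and sclera, taken from male mice. In the 3 CNV samples, choroidal neovascularization (CNV, growth of new vessels out of the choroid) had been induced with a 532 nm diode laser at 100 mW, with 0.1 s pulses on 50 µm spots and 25 burns around the optic disc of each eye, and eyes were taken 7 days later. The 3 control samples came from mice of the same age that had not been lasered. All 6 RNA samples, controls included, had been treated with RNase R before labelling with Cy3. Strain and genotype were not given in the sources used here, nor whether a sample pooled animals. Nothing in the labels ties a sample to 1 animal. The p-values below therefore reflect variation among these 6 samples, some of which may be technical.

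RNase R is an exonuclease that degrades linear RNA from its 3′ end and spares closed circles, which have no end. Messenger RNAs are therefore expected to be depleted after the treatment, although transcripts with structured ends can escape it, and a circle made of exons of a gene carries the same exon sequence as its mRNA. Random primers then copy whatever RNA is left. A signal on an mRNA probe can thus come from undigested mRNA, from a circle that shares the exon or from unspecific binding, and which of these applied was not tested. No untreated RNA was analysed here, so no degree of depletion is given.

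Of the 47 mRNA probes, 19 were brighter than the highest of 15 negative probes on all 6 arrays, 9 on 1 to 5 arrays and 19 on none. The values are background-subtracted spot intensities in scanner units, averaged on the log scale over the spots of a probe. On controls 1 to 3 the highest negative probe read 36.7, 28.4 and 36.4, and on CNV 1 to 3 it read 40.9, 38.9 and 34.3. Negative probes are designed to match no mouse transcript, yet some of the 15 were bright: the third highest ranged from 12.3 to 28.7 and the fourth from 6.64 to 11.1, against a median of 2.57 to 4.45. The bar of the highest negative probe is thus a strict one, and 25 of the 47 cleared the second highest on all 6 arrays. No share over all probes is given for either bar, so whether these counts are high or low for this array was not tested. By the scanner's own flag, which marks spots well above local background, 35 of the 47 were detected on all 6 arrays. The same held for 12059 of all 14330 probes. Of the 15 negative probes, 4 were flagged on at least 3 arrays, so the flag does not by itself show that the named mRNA was present. Probes differ in how strongly they bind, so intensities of different genes are not set against each other.

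The number of mRNA probes above the highest negative probe was 22, 25 and 24 for controls 1 to 3, compared with 19, 27 and 28 for CNV 1 to 3. By this bar CNV 1 had the fewest and the other CNV arrays the most, so the groups overlap. The ranking of arrays depended on the bar. Over the second highest negative probe, control 1 and CNV 1 led with 31 probes each. CNV 2 and CNV 3 then had 28 each, control 3 had 27 and control 2 had 25. The highest negative probe of control 1 read 36.7 and the second 13.6, and those of CNV 1 read 40.9 and 12.9. The 75th percentile of all intensities was 80.8, 111 and 106 on the controls and 80.6, 126 and 135 on the CNV arrays. CNV 2 and CNV 3, where most mRNA probes cleared the highest negative probe, were the brightest arrays. Control 1 and CNV 1, where most cleared the second highest, were the dimmest. What overall brightness contributed to these counts was not tested.

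Among cytoskeletal and centrosomal genes, 2 of 3 stayed above the negative probes on every array. Actb encodes beta-actin, the abundant cytoskeletal actin, and its probe read 299, 226 and 242 on controls 1 to 3, compared with 330.0, 778 and 493 on CNV 1 to 3. It was at least 6.64 times as bright as the highest negative probe on each array. Hspb7, a small heat shock protein of heart and skeletal muscle, read 124, 52.4 and 79.7 in controls and 74.6, 91.7 and 75.5 in CNV. Its control values enclose those of CNV. The probe of Cep41, a centrosomal protein also found in cilia, cleared the bar nowhere, with 5.96, 8.23 and 10.2 in controls and 7.80, 15.3 and 16.4 in CNV.

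Of the 5 genes of mitochondrial and fatty acid metabolism, 1 cleared the bar throughout. This was Pex11a, a peroxisomal membrane protein that promotes division of the organelle, with 320.5, 469 and 354 in controls and 308, 434 and 560.2 in CNV. Its smallest margin over the highest negative probe was 7.53-fold. Cpt1a, the carnitine palmitoyltransferase that admits long-chain fatty acids to mitochondria, read 28.0, 20.4 and 26.4 in controls and 29.2, 53.8 and 40.4 in CNV, and was above the highest negative probe on CNV 2 and CNV 3 alone. Acaa2, the thiolase of the last step of mitochondrial beta-oxidation, showed the same 2 arrays above the bar, with 27.6, 22.8 and 23.5 in controls and 23.6, 46.7 and 35.1 in CNV. On CNV 3 its margin was 1.02-fold. Over the second highest negative probe, Cpt1a was above on 5 arrays and Acaa2 on 4, controls among them. The scanner flag marked both on all 6 arrays. Cpt1a and Acaa2 were the 2 genes with a member probe out of 19 in the list of fatty acid oxidation. Ppara, the nuclear receptor that drives transcription of such genes, exceeded the bar on CNV 3 only, and Dnajc11, a mitochondrial chaperone protein of the cristae, on no array.

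Among other metabolic and redox enzymes, 5 of 6 probes were above the negatives on all arrays. Gpi1, the glucose phosphate isomerase of glycolysis, read 179, 135 and 129.8 in controls and 137, 197 and 228 in CNV. Gamt, which completes the synthesis of creatine, read 138, 130.5 and 135 in controls and 119, 168 and 206 in CNV. For both, CNV 1 lay within or below the range of the controls in unscaled intensity. Once arrays were scaled as described below, control 1 was the highest for both, and every CNV value lay within the range of the controls. Gsta4, a glutathione transferase that detoxifies products of lipid peroxidation, read 59.2, 190.1 and 77.5 in controls and 52.7, 248 and 262 in CNV. Its lowest values were those of control 1 and CNV 1, and control 2 stood with the bright CNV arrays. Duox1, a hydrogen peroxide-producing oxidase, read 79.0, 72.2 and 84.8 in controls and 78.3, 109 and 108 in CNV. Prdx2, a peroxiredoxin that removes peroxide, read 57.0, 62.1 and 53.2 in controls and 46.2, 73.6 and 85.4 in CNV. CNV 2 and CNV 3 were again the high arrays for both in unscaled intensity. After the scaling between arrays described below, control 1 was the highest array for both. The sixth, the dioxygenase Alkbh4, lay between 15.5 and 30.0 and below the bar on each array.

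Of 4 genes of transcription, 3 were above the bar on all arrays. Lhx1, a LIM homeodomain factor of retinal horizontal cells and of the developing kidney, read 143, 132 and 110.2 in controls and 111, 177 and 199.9 in CNV. CNV 1 lay within the range of the controls in unscaled intensity. With arrays scaled as described below, every CNV value of Lhx1 lay within that range and control 1 was the highest. Taf1a, a subunit of the factor that starts transcription of ribosomal RNA genes, read 64.3, 131 and 89.0 in controls and 70.5, 118 and 128 in CNV, with control 2 the highest. E2f1, a cell cycle transcription factor, ranged from 11.8 to 19.3, under the bar on all arrays.

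The probes of both olfactory receptors were above the highest negative probe on all 6 arrays. Such receptors are the odorant sensors of olfactory neurons, and no olfactory tissue was sampled. Olfr166 read 189, 181 and 189 in controls and 178, 238 and 318 in CNV, at least 4.35 times the highest negative probe. Olfr1307 read 119.5, 163 and 118 in controls and 97.6, 169.5 and 237 in CNV. In each, CNV 1 was the lowest array and CNV 3 the highest in these unscaled intensities. After the scaling between arrays described below, CNV 3 stayed the highest. The lowest was then control 2 for Olfr166 and control 3 for Olfr1307. A signal above the negative probes does not by itself show that the named mRNA was present.

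Of 3 immune genes, Il2, the T-cell growth factor interleukin 2, was above the bar on all 6 arrays, with 56.8, 41.1 and 54.6 in controls and 54.7, 70.1 and 78.6 in CNV. Gsdmd, the pore-forming protein of pyroptosis, cleared it on 5 arrays and Mzb1, a protein of the endoplasmic reticulum in B and plasma cells, on 3. Hyal3, of the hyaluronidase family that cleaves hyaluronan in the matrix, read 49.4, 48.0 and 49.2 in controls and 44.3, 67.0 and 71.5 in CNV. It was above the bar everywhere, by as little as 1.08-fold on CNV 1.

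The 3 genes grouped as cell type markers were dim. Lhx1, Hspb7 and the olfactory receptors, also tied above to certain cells or tissues, were placed in other groups and were brighter. Tyr, the tyrosinase that starts melanin synthesis in pigment cells, read 5.61, 4.68 and 5.48 in controls and 4.80, 14.1 and 11.9 in CNV, under the bar on every array. All 10 of its spots were well above local background on CNV 2 and CNV 3, against 3 to 6 of 10 on the other 4 arrays. Mbp, a structural protein of myelin, read 5.55, 5.45 and 7.62 in controls and 7.56, 34.0 and 9.32 in CNV. Its value on CNV 2 stands apart from the other 5 arrays, and the number of its spots well above background was 4, 3 and 9 of 10 on the controls, compared with 7, 10 and 10 on the CNV arrays. Chgb, a granin of neuroendocrine vesicles, ranged from 13.2 to 32.3. Neither the 10 RPE markers nor the markers of photoreceptors, endothelium, macrophages or scleral fibroblasts that were looked up have a probe among the 47. The labelled tissue could therefore not be checked with these probes beyond Tyr, the 1 of 7 melanocyte genes present, and Mbp, the 1 of 7 genes of Schwann cells and nerve.

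RNA-related genes and trafficking genes lay mostly under the bar. Carhsp1, a small RNA-binding cold shock protein, was the 1 of 3 in its group above it on all arrays, with 122, 94.7 and 59.0 in controls and 82.9, 108 and 142 in CNV. Rps4l, listed in RefSeq as a transcribed pseudogene related to a ribosomal protein, read 13.1, 19.8 and 18.0 in controls and 10.5, 16.5 and 20.1 in CNV. Trp53rka, whose product belongs to a complex that modifies transfer RNA, ranged from 4.30 to 9.59. Rps4l may share sequence with the ribosomal protein genes it resembles, so its identity is uncertain. None of the 6 trafficking genes was above the bar on all arrays: Anxa8, a membrane-binding annexin, cleared it on 5, Tm9sf1, a transmembrane protein of endosomes, on 4, and Rab5a, Atg3, Nup50 and Uhrf1bp1l on none. Rab5a, a small GTPase of early endosomes, ranged from 5.29 to 13.0, and Atg3, an enzyme of autophagosome formation, from 3.64 to 18.8. Nup50, a nuclear pore protein, ranged from 3.19 to 12.9 and Uhrf1bp1l from 9.99 to 24.9.

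Membrane receptors and channels were the only group with no probe detected by the scanner's flag on any array. Bambi, a decoy receptor of TGF-beta signalling, ranged from 2.59 to 6.21. Cav2, a caveolin, reached 2.41, Gabrg1, a subunit of the GABA-A receptor, 2.80, and Kcnn2, a calcium-activated potassium channel, 2.01. These intensities lie among those of the dim majority of negative probes.

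Of the 6 probes without a symbol, 3 were above the bar on all arrays. A_51_P191463 read 247, 325 and 289 in controls and 258, 366 and 537 in CNV. A_51_P284125 read 49.2, 66.9 and 50.3 in controls and 43.9, 74.5 and 90.4 in CNV. A_51_P237746 read 41.1, 53.4 and 46.7 in controls and 43.1, 64.3 and 70.2 in CNV. It was the closest inside the bar, at 1.05 times the highest negative probe on CNV 1. Just outside, Anxa8, A_51_P444920 and Gsdmd failed on CNV 1 alone, at 0.89, 0.84 and 0.81 times the highest negative probe. A_51_P213099 and A_51_P425205 reached 14.5 and 14.0, under the bar throughout. Spats1, named for its link to spermatogenesis, was placed with these as a gene of unknown role and ranged from 22.6 to 95.7, above the bar on 4 arrays.

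Before groups were compared, each array was scaled by subtracting the log2 of its 75th percentile, so the values that follow are normalized log2 signals. The 10 spots of a probe agreed more closely than the arrays of a group did. The SD of log2 signal over the spots of 1 probe had a median of 0.10 over the 47 probes and 6 arrays, and the SD between arrays of 1 group had a median of 0.23. The SD between arrays was the larger of the pair in 40 of the 47, and in 18 of the 19 that cleared the bar on all arrays. Among the 6 probes left out by the filter described next, it was the larger in 1.

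No mRNA probe passed the adjusted threshold between CNV and controls. A filter on dim probes kept 41 of the 47 probes, those well above background on at least 3 arrays. It left out Bambi, Cav2, Gabrg1, Kcnn2, Trp53rka and A_51_P425205. In the limma fit over all 13435 kept probes of the arrays, 0 of the 41 were past an adjusted p of 0.05, where 0% of all kept probes were called. The lowest adjusted p among the 41 was 0.770. Actb alone had an unadjusted p under 0.05, 1 of 41, where the share over all kept probes was 5.7%. The 95% confidence interval of a difference had a median half-width of 0.53 log2 units.

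Most of these probes leaned towards CNV by small amounts. The difference was above 0 in 36 of 41 and below it in 5, against 56.6% above 0 over all kept probes. With no filter it was above 0 in 40 of 47, against 56.1% of all 14330 probes. The median difference was 0.12 log2 units over the 41 and 0.05 over all kept probes, and it was -0.04 over the 15 negative probes. The lean was not particular to the mRNA probes. Of the custom probes 13 of 15 were above 0, with a median of 0.22. Of the circRNA control probes 1 of 14 was above 0, with a median of -0.71. With arrays centred on their median, 31 of 41 were above 0, against 51.7% of all kept probes. Normexp background correction left 26 of 41 (44% of all kept probes) when scaled to the 75th percentile and 34 of 41 (53.4%) with quantile normalization. The median over the 41 was 0.24 without control 1 and 0.029 with normexp and the 75th percentile, where that over all kept probes was 0.07 and -0.024. Probes above the highest negative probe on all arrays had a median of 0.13 (19 probes) and those above it on none 0.12 (13 kept probes). By function the medians ran from -0.10 over 2 RNA-related genes and 0.08 over 4 transcription genes to 0.48 over 3 cytoskeletal and 0.65 over 3 cell type marker genes. Medians of so few genes do not rank the groups. The 0.65 is the value of Tyr alone. Tyr passed the filter on 1 control and 2 CNV arrays, and Mbp of the same group on 1 control and 3 CNV arrays.

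The lean differed between arrays. Averaged over the 47 probes, controls 1 to 3 had a normalized log2 signal of -1.65, -1.90 and -1.89, and CNV 1 to 3 one of -1.78, -1.56 and -1.57. CNV 1 thus lay under control 1, and the groups overlap. CNV 1 exceeded control 1 in 10 of the 41 kept probes, CNV 2 exceeded control 2 in 32 and CNV 3 exceeded control 3 in 34. Over all kept probes these shares were 49.5%, 58.1% and 52.5%. The highest of the 6 values fell on control 1 in 14 of the 47 probes, on CNV 3 in 14, on CNV 2 in 12, on control 2 in 3 and on control 3 and CNV 1 in 2 each. All 3 controls and CNV 2 lay in slide row 1 and CNV 1 and CNV 3 in row 2. In row 1 alone, with CNV 2 as the only CNV array, 27 of 41 were higher in CNV, against 56.8% of all kept probes. The median there was 0.10 against 0.08 over all kept probes.

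All 3 CNV values lay above all 3 controls in 2 of the 41 probes, Cep41 and A_51_P237746, and below them in 1, Rps4l. Over all kept probes these shares were 6.95% and 4.29%, and 11.2% for both directions together, so 3 of 41 is near the background. The count above was 18 without control 1, where 20.1% of all kept probes were so arranged, 8 without CNV 1 (16.8%) and 5 without CNV 3 (10.3%), and 3 with control 2, control 3 or CNV 2 left out (9.94% to 11.1%). The count below was 3 without control 2, where the share of all kept probes was 6.62%. With control 1 and CNV 1 both left out, 23 of 41 lay above the controls, against 30.2% of all kept probes, and the median difference was 0.26 against 0.09 over all kept probes. That comparison has 2 arrays per group and leaves out the dimmest array of each.

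Actb had the one unadjusted p under 0.05. After scaling, its log2 signals were 1.89, 1.02 and 1.19 in controls and 2.03, 2.62 and 1.87 in CNV. CNV 3 lay just under control 1, so the groups overlap although the unscaled intensities do not. The difference was 0.81 ± 0.31 (SE, n = 3 per group), or 1.75-fold, with a 95% confidence interval from 0.10 to 1.52 (limma unadjusted p = 0.031, adjusted p = 0.770). Without single arrays it ran from 0.59 (without CNV 2) to 1.07 (without control 1), and with either control 2, control 3 or CNV 2 left out the unadjusted p was 0.102, 0.090 and 0.104. With normexp background correction and quantile normalization of all 6 arrays, the Actb difference was 0.68 (limma unadjusted p = 0.059).

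Both fatty acid oxidation genes overlapped between the groups. Cpt1a had normalized log2 signals of -1.53, -2.44 and -2.00 in controls and -1.47, -1.23 and -1.74 in CNV. Only control 1 reached into the CNV range. Its difference was 0.51 ± 0.28 (SE, n = 3 per group), with an interval from -0.14 to 1.17 (limma adjusted p = 0.770). It was 0.29 without control 2 and 0.12 with normexp background correction scaled to the 75th percentile. Acaa2 stood at -1.55, -2.28 and -2.17 in controls and -1.77, -1.44 and -1.94 in CNV, a difference of 0.28 ± 0.27 (SE; adjusted p = 0.841). Control 1 again lay within the CNV range. Without control 1 this became 0.51, without control 2 it was 0.14, and with the same normexp setting 0.055. The other 3 genes of the group, Pex11a, Ppara and Dnajc11, differed by -0.013, 0.010 and 0.17.

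The pigment and myelin genes overlapped between the groups. Tyr stood at -3.85, -4.57 and -4.27 in controls and -4.07, -3.16 and -3.50 in CNV. CNV 2 and CNV 3 lay above the controls and CNV 1 among them. The difference was 0.65 ± 0.30 (SE; adjusted p = 0.770), and with normexp background correction and scaling to the 75th percentile it turned to -0.015. Mbp stood at -3.86, -4.35 and -3.79 in controls and -3.42, -1.90 and -3.85 in CNV, a difference of 0.95 ± 0.48 (SE; adjusted p = 0.770). CNV 3 fell within the controls, and the difference was 0.37 without CNV 2 and 0.11 with that normexp setting. Chgb, the third of the group, differed by 0.24 ± 0.23 (SE; adjusted p = 0.849). As Tyr passed the filter on 1 control and 2 CNV arrays and Mbp on 1 control and 3 CNV arrays, their control levels are near background and uncertain.

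The 3 probes without overlap had small or dim signals. Cep41 stood at -3.76, -3.76 and -3.37 in controls and -3.37, -3.05 and -3.04 in CNV. Its brightest control all but touched CNV 1. The difference was 0.48 ± 0.22 (SE; adjusted p = 0.770 in limma). It was -0.011 with normexp background correction and scaling to the 75th percentile. A_51_P237746 had -0.98, -1.06 and -1.18 in controls and -0.90, -0.98 and -0.94 in CNV, a difference of 0.13 ± 0.19 (SE; adjusted p = 0.897). Rps4l had -2.62, -2.49 and -2.55 in controls and -2.94, -2.94 and -2.75 in CNV. Its difference of -0.32 ± 0.19 (SE; adjusted p = 0.775) was the lowest of the 41, while its unscaled intensities overlapped between the groups.

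Among the other probes above the negatives on all arrays, groups overlapped in each. Their differences ran from -0.18 for Hspb7 to 0.48 for Gsta4. Gsta4 stood at -0.45, 0.77 and -0.45 in controls and -0.61, 0.97 and 0.96 in CNV, with control 2 beside CNV 2 and CNV 3 and an SE of 0.51. The olfactory receptors differed by 0.17 ± 0.23 (Olfr166) and 0.08 ± 0.24 (Olfr1307) (SE, n = 3 per group). Lhx1 differed by 0.13 ± 0.25 and Il2 by 0.24 ± 0.27. These differences are smaller than their standard errors. Their 95% confidence intervals were wide, from -0.44 to 0.70 for Lhx1 and from -0.35 to 0.70 for Olfr166.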

How the data were processed

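Per the file headers, the deposited spot intensity is the background-subtracted signal of Agilent Feature Extraction 11.0.1.1, with no scaling between arrays. All 6 arrays lay on 1 slide with 1 scan. The authors' deposited value table holds circRNA probes only and was not used. Spots marked as non-uniform or population outliers (18 to 32 of the mRNA spots per array) were left out, and log2 intensities were averaged per probe. No mRNA spot was saturated. A probe was well above background where a share above 0.5 of its spots carried the scanner flag. The 2 groups were tested by lmFit and eBayes of limma 3.58.1 (R 4.3.3), without covariates, over all probes kept, with Benjamini-Hochberg adjustment over all of them. The procedure was tested on simulated data with 100 changed probes. The share of them called was 0.07 for changes of 1 log2 unit and 0.6 for changes of 2. A lack of calls therefore does not show a lack of change. Transcripts were matched to RefSeq (GRCm38.p6). The headers name mm9, so no coordinates are given. Probe sequences were not used here, and the values of 1 probe are not reported here. Function groups were assigned from gene names. The probes, the lists and the alternatives were chosen with earlier results of these data known. Values in every sample were given for probes above the highest negative probe on all arrays, without overlap, at unadjusted p under 0.05, or named in the choice of the set (Actb, Cpt1a, Acaa2, Tyr, Mbp). Whether the titles' replicate numbers pair samples was checked over circRNA probes. Deviations from group means correlated at 0.41, 0.18 and 0.17 in pairs 1 to 3, where a pair is a control and a CNV sample of the same number. Control 2 correlated more with CNV 3, at 0.32, so the values did not settle the pairing, and the labels do not give it. The main fit was therefore unpaired, and a replicate block was run as an alternative.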

Additional observations from a re-analysis of the deposited data

Results flagged for a closer look

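Bambi was not tested, since its probe was well above background on no array, yet its 3 normalized log2 signals in CNV all lay above the controls, with means of -4.62 and -5.04 and a difference of 0.43. Its intensities were among those of the dim negative probes, and its spots within an array had a median SD of 0.58.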

How the results depend on the processing

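No mRNA probe passed the adjusted threshold under any of 19 alternatives, and 26 to 40 of the probes kept were higher in CNV. Over all kept probes the share higher in CNV ran from 44% to 59.4%. The replicate block left 0 past the adjusted threshold and 1 at an unadjusted p under 0.05 (Actb), and changed no call. Counts below stand beside the share of all kept probes in parentheses. With normexp and quantile normalization the count at an unadjusted p under 0.05 stayed at 1 (7.78%). The probe there was A_51_P191463 in place of Actb. The unadjusted count was 3 with quantile normalization (6.54%), 2 with flagged spots kept (5.7%), 4 with slide row as a term (13.1%), 4 in slide row 1 alone (10.7%), 4 with pair 1 left out (16.5%), and 0 to 5 without single arrays, with 0 without control 2 (2.24%) or CNV 2 (2.55%) and 5 without CNV 1 (8.91%). Probes with all CNV values above the controls numbered 1 with median centring (5.78%), 1 with the median of spots (6.94%), 15 in slide row 1 alone (33.8%), 23 with pair 1 left out (30.2%) and 3 to 18 without single arrays (9.94% to 20.1%). Those below numbered 0 with normexp and the 75th percentile (5%), 3 in slide row 1 alone (21.5%) and 1 to 3 without single arrays (6.54% to 17.3%). With fewer arrays, more probes separate by construction. The median difference was 0.26 with pair 1 left out. With normexp and the 75th percentile, Tyr turned to -0.015 and Cep41 to -0.011, and Mbp, Cpt1a and Acaa2 fell to 0.11, 0.12 and 0.055. The offset of 50 added there shrinks differences of probes this dim, so that setting cannot decide their size or sign. The 19 probes above the negative probes on all arrays became 44 against the 95th percentile of the scanner's negative spots and 35 by the scanner flag, both lower bars, and 19 to 22 without single arrays. Leaving out pair 1 was chosen after seeing the data. Normexp was run on median spot signals in place of the planned mean signals. The deposited value table gave no value for these probes. Slide row 2 holds no control, so a fit with slide row takes its difference from CNV 2 alone.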
